A study of Homo sapiens with 36 samples.

Results

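A set of 10 genes was followed across a dose series of a MEK inhibitor: AXIN2, LGR5, ZNRF3, RNF43, TNFRSF19, NKD1, SP5, TCF7, LEF1 and SOX9. They were chosen by name, as well-known targets of WNT signalling or genes of the intestinal crypt stem cell, and they are 10 of the 20802 genes in the count matrix. Of these members, 9 passed the filter on low counts and are among the 12102 genes tested, and TCF7 is given as counts only. LoVo, an established human colorectal cancer line, was exposed for 24 hours to the inhibitor at 0.03, 0.1, 0.3, 1, 3, 10, 30, 100, 300 or 1000 nM, or to DMSO, the solvent. Every group was LoVo grown in the same medium with serum, and the labels set them apart by agent and dose, and the DMSO groups also by chip. There were 3 libraries per dose and 6 of DMSO, which were run as replicates 1 to 3 on each of a pair of sequencing chips, 36 libraries in all. The compound is identified in the series only by its place in a published set of molecules, so no structure is given here.

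WNT ligands bind Frizzled receptors and their LRP partners, which stops a destruction complex of AXIN, APC, GSK3 and casein kinases from degrading beta-catenin. Beta-catenin then enters the nucleus and switches on genes together with DNA-binding factors of the TCF/LEF family. At the base of the intestinal crypt this signal maintains the stem cells, and many of its targets are brakes on the pathway itself. LoVo carries inactivating mutations of APC, so beta-catenin signalling is active without ligand. MEK phosphorylates and so activates ERK, the last kinase of the MAPK cascade.

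RNA was measured with Ion AmpliSeq, in which each gene is amplified as a short amplicon, and the number of counts depends on how well that amplicon amplifies. Levels are therefore compared between conditions for 1 gene and never between genes. Levels are given as CPM, a gene's counts scaled to a common library size with TMM (trimmed mean of M values). Total counts per library ran from 2972186 to 4751839. The 8 epithelial markers were all tested, and their summed level was 4105 to 4342 CPM in DMSO and 4492 to 4823 CPM at 1000 nM. Of these 8, 4 rose and 3 fell at 1000 nM, where 21.2% of all tested genes were called higher and 20.7% lower. Among them were CDH1 (log2 fold change 0.79), CLDN4 (0.85) and CLDN7 (-0.76). The 9 fibroblast markers summed to 3.28 to 4.51 CPM in DMSO and 41.0 to 42.4 CPM at 1000 nM, with COL1A2 and FAP at 0 in every library. The 3 that were tested rose, beside 21.2% of all tested genes, COL3A1 by 3.71, COL1A1 by 2.71 and LUM by 4.07 on the log2 scale. The part of these markers in the results on the members was not tested. The 6 blood markers summed to 8.60 to 15.7 CPM in DMSO and to 63.5 to 77.1 CPM at 1000 nM, LYZ being the only one tested and CD3E at 0 in every library. The 5 endothelial markers summed to at most 2.08 CPM, with KDR at 0. DUSP6, a phosphatase induced by ERK, was 64.2 ± 3.27 CPM in DMSO and 1.89 ± 0.468 CPM at 1000 nM (SD, n = 3). The first libraries of 1 nM and 1000 nM and the second of 0.1 nM stood 0.257, 0.237 and 0.203 (median absolute log2 distance over 9050 genes) from the other libraries of their groups, as did the last library of 1000 nM at 0.209, against 0.106 for the closest library. Leaving out the 3 named first changed 1 call on the members, LGR5 at 30 nM. How the cultures were separated is not in the labels. The p-values therefore measure only how far these libraries spread, and some of that spread may be technical. The libraries are bulk RNA, so fewer cells of a type and less RNA per cell cannot be told apart.

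TCF/LEF factors read a short core, CTTTGAT, and its first 5 letters, CTTTG, occur in many promoters. RefSeq promoter sequence on GRCh38.p14 was at hand for 5 of the 10 members, as 8 start sites: SP5, LEF1, TCF7, TNFRSF19 and RNF43. Of these windows, 3 are printed as 250 bases upstream of a start, 5′ to 3′ on the gene's strand, because RNF43 and TNFRSF19 are the 2 members that rose at the top dose, and because SP5 held most matches. Capitals mark CTTTG and its reverse complement, CAAAG. The shorter word is part of the longer one, so every match to the core is also counted among its first letters.
SP5 (chr2:170715087-170715336, plus strand): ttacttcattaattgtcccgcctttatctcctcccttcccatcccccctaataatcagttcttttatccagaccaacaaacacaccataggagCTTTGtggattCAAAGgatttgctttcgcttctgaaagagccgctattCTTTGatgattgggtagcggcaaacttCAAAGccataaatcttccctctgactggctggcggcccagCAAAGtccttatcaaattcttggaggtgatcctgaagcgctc
RNF43 (chr17:58417535-58417784, minus strand): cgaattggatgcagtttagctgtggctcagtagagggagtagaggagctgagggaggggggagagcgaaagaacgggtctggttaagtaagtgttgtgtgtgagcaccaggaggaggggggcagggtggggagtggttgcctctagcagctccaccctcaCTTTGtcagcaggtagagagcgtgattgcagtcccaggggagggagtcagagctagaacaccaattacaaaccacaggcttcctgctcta
TNFRSF19 (chr13:23570162-23570411, plus strand): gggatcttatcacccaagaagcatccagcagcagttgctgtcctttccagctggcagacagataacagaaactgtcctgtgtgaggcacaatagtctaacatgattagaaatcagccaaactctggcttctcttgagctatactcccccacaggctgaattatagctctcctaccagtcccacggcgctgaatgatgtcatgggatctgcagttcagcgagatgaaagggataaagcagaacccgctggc

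SP5 had 5 matches to CTTTG on either strand, 1 of them within CTTTGAT. Among 35116 promoters of the same length, 30 (0.0854%) held 5 or more matches to CTTTG, 42.1% held at least 1, and 2.26% held CTTTGAT. RNF43 had 1 match at each of its 2 starts, TNFRSF19 had 0 at the start shown and 1 at the other, LEF1 had 1, and TCF7 had 0 and 2. None of those 7 windows held CTTTGAT. A match describes letters only, and SP5 was singled out after its matches had been counted.

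The question put to the members was whether a target of WNT signalling moved when MEK was inhibited, and at which dose. Of the 9 tested members, 5 were called against DMSO at 1 or more doses: TNFRSF19 and RNF43 rose, and ZNRF3, LGR5 and SOX9 fell. Over all 12102 genes, 56.8% were called at 1 or more doses. AXIN2, NKD1, LEF1 and SP5 were called at no dose. A gene was called where it differed from the DMSO libraries of both chips in the same direction, with the larger p below 0.05 after Benjamini-Hochberg adjustment over all tested genes (edgeR's quasi-likelihood test). Each fold change is the mean of the comparisons with both chips, and its standard error (SE) is the larger of theirs. All doses share the same 6 DMSO libraries, so the comparisons at different doses are not independent. An alternative against the mean of both DMSO groups counts these 6 libraries as independent. Same-numbered libraries may be 1 sample run on both chips, so the p-values of that alternative may be too small.

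By dose, 0 of 9 members were called at 0.03, 0.1, 0.3, 1 and 3 nM, where the share of all tested genes called was 0% at the first 3 of these doses, 7.97% at 1 nM and 13.3% at 3 nM. At an unadjusted p below 0.05, 1 member was found at 0.3 nM (SOX9) and 1 at 3 nM (TNFRSF19), and DESeq2 and limma voom each called 0 members at these 5 doses. At 10 nM, 2 of 9 members were called, against 26.8% of all genes: 1 was higher (13.5% of all genes) and 1 lower (13.3%). At 30 nM 4 of 9 were called, against 36%, with 2 higher (18%) and 2 lower (18%). At 100 nM 4 of 9 were called, against 37.2%, with 2 higher (18.4%) and 2 lower (18.8%). At 300 nM 5 of 9 were called, against 45.1%, with 2 higher (22.1%) and 3 lower (23%). At 1000 nM 3 of 9 were called, against 41.8%, with 2 higher (21.2%) and 1 lower (20.7%). The median log2 fold change of the 9 members was 0.20 at 10 nM, 0.10 at 100 nM and -0.20 at 1000 nM, beside 0.01 at each of these doses for all genes. The members' share of calls was near that of all genes at these doses, so the count is no result about the set, and the members moved in both directions.

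**Figure D1:**
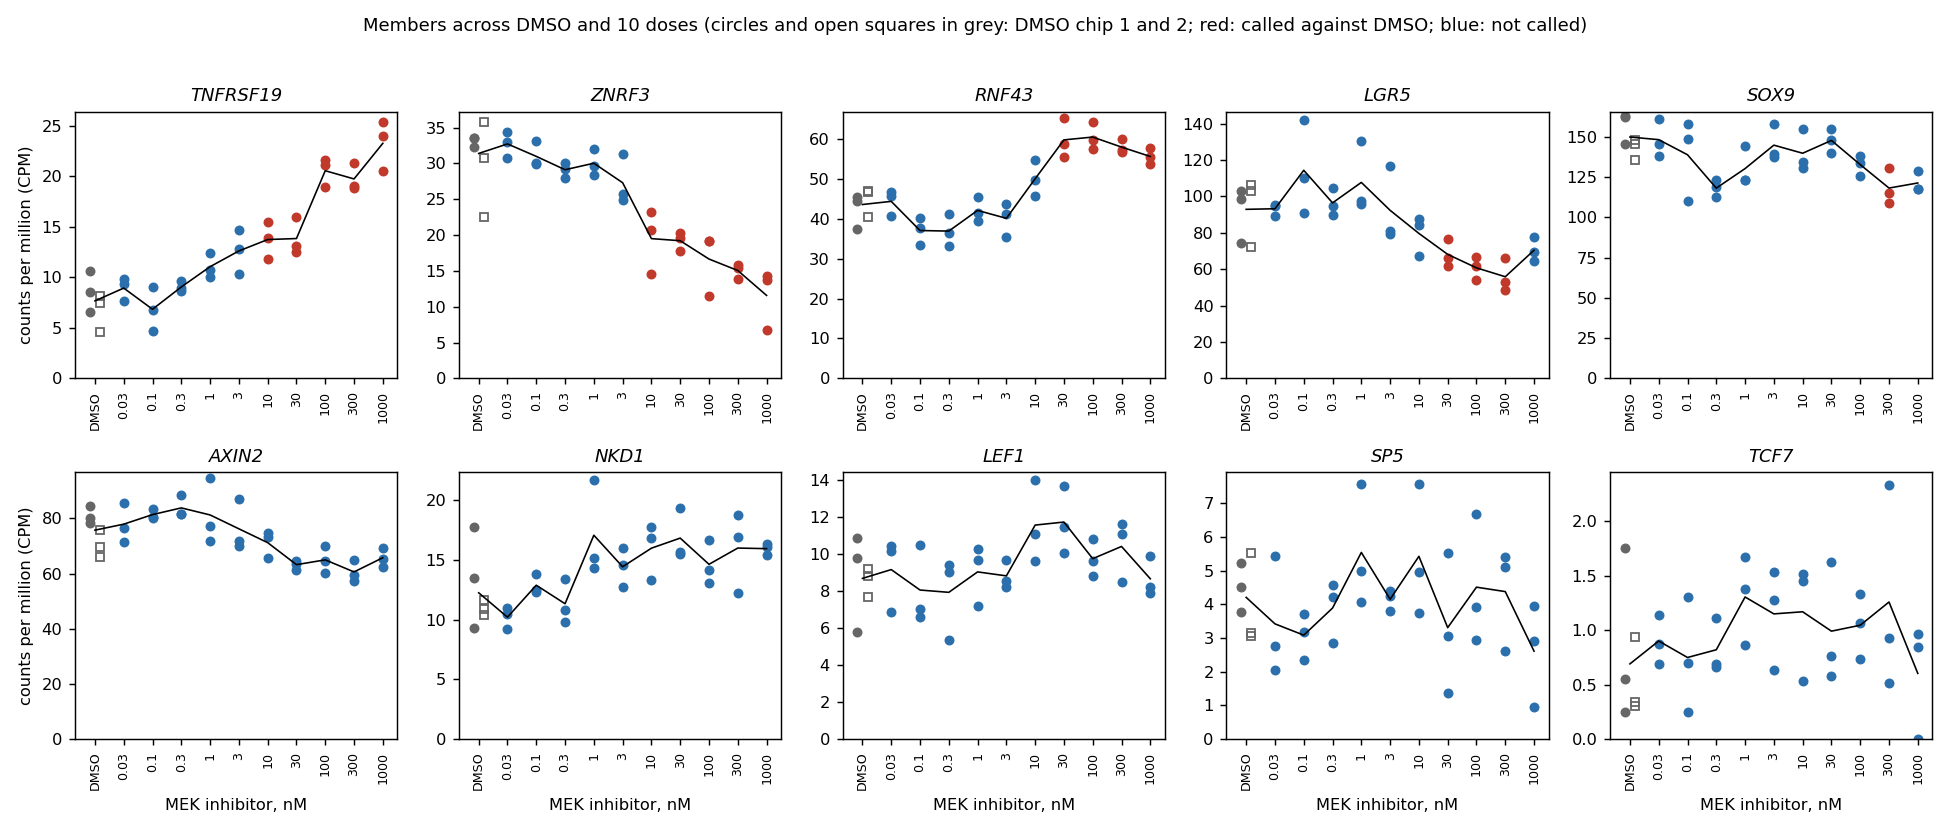
Level of each member in CPM on the vertical axis (linear, from 0) against treatment on the horizontal axis, with 1 point per library; grey circles and squares are DMSO on chip 1 and chip 2, red points are doses called against DMSO, blue points are not, and the line joins the means. TNFRSF19 climbed from 7.66 to 23.2 CPM, while ZNRF3 fell from 31.4 to 11.6 CPM between DMSO and 1000 nM.

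ZNRF3 and RNF43 encode homologous transmembrane ubiquitin ligases that remove Frizzled receptors from the cell surface and so limit WNT signalling. ZNRF3 fell with dose. Its level was 32.3, 33.5 and 33.6 CPM in the DMSO libraries of chip 1 and 30.7, 35.8 and 22.5 CPM in those of chip 2. It was 20.7, 23.3 and 14.6 CPM at 10 nM, and 19.2, 19.2 and 11.5 CPM at 100 nM. At 1000 nM it was 6.75, 13.7 and 14.2 CPM. From 30 nM every treated library lay below all 6 DMSO libraries, whereas at 10 nM 1 library, at 23.3 CPM, lay above the lowest of them.

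The log2 fold change of ZNRF3 was -0.68 (SE 0.184, adjusted p = 0.0111) at 10 nM, -0.71 (SE 0.183, adjusted p = 0.00532) at 30 nM, and -0.92 (SE 0.186, adjusted p = 0.000242) at 100 nM. It was -1.06 (SE 0.188, adjusted p = 2.56e-05) at 300 nM and -1.43 (SE 0.197, adjusted p = 1.52e-07) at 1000 nM. The library of 6.75 CPM, 1000 nM replicate 1, stood apart from its group over all genes, and without the 3 such libraries the value at 1000 nM was -1.16 and still called. The calls at 100, 300 and 1000 nM held in all 22 alternatives run for each. The call at 10 nM was lost without DMSO chip 2 replicate 2 (adjusted p = 0.105) or without 10 nM replicate 3 (adjusted p = 0.115), and the call at 30 nM without DMSO chip 2 replicate 2 (adjusted p = 0.0676).

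RNF43 rose from 30 nM on. It was 44.6, 45.4 and 37.4 CPM in DMSO on chip 1 and 47.0, 40.5 and 46.7 CPM on chip 2. At 30 nM it was 58.7, 65.2 and 55.5 CPM, and at 1000 nM 55.4, 57.6 and 53.8 CPM. All libraries from 30 nM up lay above all 6 DMSO libraries, and the 3 libraries of 10 nM, at 45.7, 49.7 and 54.7 CPM, overlapped them. Its log2 fold change was 0.45 (SE 0.118, adjusted p = 0.00405) at 30 nM, 0.47 (SE 0.118, adjusted p = 0.00242) at 100 nM, 0.41 (SE 0.118, adjusted p = 0.00799) at 300 nM and 0.35 (SE 0.119, adjusted p = 0.0291) at 1000 nM. The calls at 30 and 100 nM held in all 22 alternatives. The call at 300 nM was lost without DMSO chip 2 replicate 2 (adjusted p = 0.0703). The call at 1000 nM was lost without DMSO chip 1 replicate 3 (adjusted p = 0.0588), without DMSO chip 2 replicate 2 (adjusted p = 0.177), without 1000 nM replicate 1 (adjusted p = 0.0610) or replicate 2 (adjusted p = 0.0900), and under both other low-count filters (adjusted p = 0.119 with no filter, 0.0552 with at least 1 CPM in 3 libraries).

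The ratio of ZNRF3 to RNF43 within a library compares the 2 ligases without reference to any other gene, so a difference between treatments shows that they changed unequally. The log2 ratio was -0.48 ± 0.155 in DMSO (SD, n = 3, each replicate averaged over both chips), -0.55 ± 0.226 at 3 nM, -1.37 ± 0.449 at 10 nM and -2.31 ± 0.592 at 1000 nM. The 3 libraries at 1000 nM, at -1.90, -2.05 and -2.99, lay below the 3 DMSO values. The difference was -1.83 (exact two-sided permutation test, p = 0.1, the smallest p that 20 arrangements allow), so the design could not reach 0.05. Over the 15 libraries of 10 to 1000 nM together the difference from DMSO was -1.34, which is a description, since it pools 5 doses and the range was chosen with earlier results known. At 3 nM and below, the mean ratio was between -0.55 and -0.25.

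**Figure D2:**
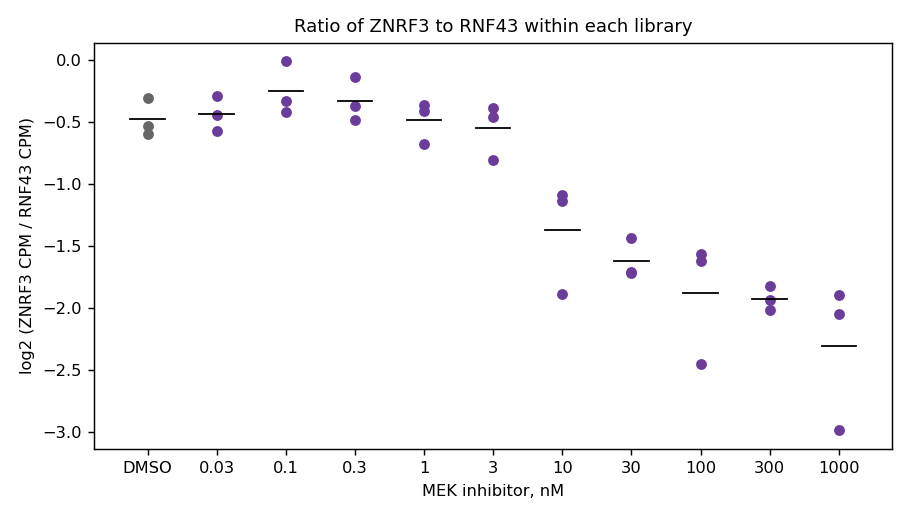
Log2 ratio of ZNRF3 CPM to RNF43 CPM in each library (vertical axis) by treatment (horizontal axis); bars are means, and DMSO points are the 3 replicates averaged over both chips. The means lay between -0.55 and -0.25 up to 3 nM and between -2.31 and -1.37 from 10 nM.

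LGR5 encodes a receptor for R-spondins, ligands that protect Frizzled from ZNRF3 and RNF43, and it marks the stem cells at the crypt base. LGR5 fell at 30, 100 and 300 nM. It was 74.4, 98.8 and 103 CPM in DMSO on chip 1 and 72.2, 103 and 106 CPM on chip 2. Replicate 1 was the low one on both chips, so the DMSO groups spread widely. It was 66.7, 53.9 and 61.7 CPM at 100 nM and 52.7, 48.4 and 66.4 CPM at 300 nM, which were below all 6 DMSO libraries. At 1000 nM it was 69.2, 64.4 and 77.7 CPM, which overlapped DMSO.

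Its log2 fold change was -0.44 (SE 0.173, adjusted p = 0.0476) at 30 nM, -0.61 (SE 0.174, adjusted p = 0.00581) at 100 nM and -0.73 (SE 0.176, adjusted p = 0.000957) at 300 nM. The value at 1000 nM, -0.39 (SE 0.173, adjusted p = 0.0719), was not called. The calls at 100 and 300 nM held in all 22 alternatives. The call at 30 nM was lost in 10 of 22: without DMSO chip 1 replicate 2 (adjusted p = 0.133) or 3 (0.176), DMSO chip 2 replicate 2 (0.128) or 3 (0.154), or 30 nM replicate 1 (0.120) or 2 (0.159), and in 4 others with adjusted p from 0.0535 to 0.0761. At 1000 nM LGR5 was called without DMSO chip 1 replicate 1 (adjusted p = 0.0435), and with the DMSO groups averaged (0.0258), DMSO counts summed over chips (0.0320) or no low-count filter (0.00376). The step from 100 to 1000 nM in LGR5 was 0.22 (SE 0.176, adjusted p = 0.862), so the higher mean at the top dose did not exceed the spread.

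TNFRSF19, also called TROY, is a receptor of the TNF receptor family that marks crypt stem cells and is a known target of beta-catenin and TCF. It rose the most of the tested members. It was 8.52, 10.6 and 6.60 CPM in DMSO on chip 1 and 4.61, 8.16 and 7.49 CPM on chip 2. It was 15.4, 13.9 and 11.8 CPM at 10 nM, 21.1, 21.6 and 18.9 CPM at 100 nM and 23.9, 20.5 and 25.3 CPM at 1000 nM. From 10 nM all libraries lay above all 6 DMSO libraries.

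The log2 fold change of TNFRSF19 was 0.85 (SE 0.232, adjusted p = 0.0147) at 10 nM, 0.85 (SE 0.231, adjusted p = 0.0096) at 30 nM, 1.43 (SE 0.218, adjusted p = 1.39e-06) at 100 nM, 1.37 (SE 0.219, adjusted p = 3.01e-06) at 300 nM and 1.61 (SE 0.216, adjusted p = 4.79e-08) at 1000 nM. The last 3 calls held in all 22 alternatives. The call at 10 nM was lost without DMSO chip 1 replicate 3 (adjusted p = 0.106) or 10 nM replicate 1 (0.0817), and that at 30 nM without DMSO chip 1 replicate 3 (0.0803) or 30 nM replicate 1 (0.0694). The value at 3 nM, 0.72 (SE 0.228, adjusted p = 0.0746), was not called, but was without DMSO chip 1 replicate 2 (adjusted p = 0.0424) or 3 nM replicate 1 (0.0494). Against DMSO of chip 2 alone TNFRSF19 was called at 1 nM (adjusted p = 0.0387) and at 3 nM (0.00282). It was also called against the mean of both DMSO groups at both doses (0.0479 and 0.00206), and with DMSO summed over chips at 3 nM (0.00658). The doses up to 3 nM are listed after DMSO of chip 1. If this order gives the chips, which was not tested, chip 1 is the matched control there. Against chip 1 alone the log2 fold change was 0.34 at 1 nM and 0.55 at 3 nM, and neither was called.

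SOX9, a transcription factor of the crypt base, was 163, 145 and 162 CPM in DMSO on chip 1 and 145, 136 and 148 CPM on chip 2. At 300 nM it was 115, 130 and 109 CPM, and at 1000 nM 118, 128 and 118 CPM, below all 6 DMSO libraries at both doses. Its log2 fold change was -0.34 (SE 0.106, adjusted p = 0.0295) at 300 nM, where it was called, and -0.30 (SE 0.106, adjusted p = 0.0679) at 1000 nM, where it was not. The call at 300 nM was lost without DMSO chip 2 replicate 1 (adjusted p = 0.0666) or 3 (0.0745), or without 300 nM replicate 1 (0.0734) or 3 (0.120). At 1000 nM SOX9 was called against DMSO chip 1 alone (adjusted p = 0.00278), with the DMSO groups averaged (0.00453), with DMSO summed over chips (0.00743), with at least 1 CPM in 3 libraries as the filter (0.0387) and without 1000 nM replicate 2 (0.0485). At 0.3 nM the SOX9 libraries, at 119, 123 and 113 CPM, also lay below all DMSO libraries. The log2 fold change was -0.34 (SE 0.105), called only when no other doses entered the fit (adjusted p = 0.0305). That fit called 125 of all genes, beside 0 with all libraries fitted.

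AXIN2, the scaffold of the destruction complex and the most used readout of WNT activity, was called at no dose. It was 78.1, 80.2 and 84.5 CPM in DMSO on chip 1 and 75.9, 69.7 and 66.1 CPM on chip 2, and chip 2 minus chip 1 was -0.20 (SE 0.107) on the log2 scale. At 300 nM it was 64.8, 59.5 and 57.4 CPM and at 1000 nM 62.5, 69.3 and 65.4 CPM. The 300 nM libraries lay below all DMSO libraries, and those of 1000 nM overlapped chip 2. The log2 fold change was -0.32 (SE 0.11, adjusted p = 0.101) at 300 nM and -0.20 (SE 0.109, adjusted p = 0.505) at 1000 nM. Against chip 1 alone AXIN2 was called at 30, 100, 300 and 1000 nM (adjusted p = 0.00573, 0.0129, 0.00103 and 0.0168). It was also called against the mean of both DMSO groups at 30, 100 and 300 nM (0.0207, 0.0485 and 0.00363) and with DMSO summed over chips at 30 and 300 nM (0.0208 and 0.00466). Its call thus depends on how the DMSO chips are used and was lost to the rule that both chips must give it. The labels do not name the chip of treated libraries. In the listed order, DMSO of chip 1 precedes the doses up to 3 nM, and DMSO of chip 2 those from 10 nM. Each pool held 18 samples, the size of these blocks. If the blocks are the chips, chip 2 is the matched control from 10 nM, and AXIN2 was not called against it. The log2 fold change against chip 2 was -0.22 at 300 nM and -0.10 at 1000 nM. Whether the blocks are the chips was not tested.

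NKD1, a Dishevelled-binding inhibitor of WNT signalling, was called at no dose. It was 17.8, 9.33 and 13.5 CPM in DMSO on chip 1, 11.7, 10.4 and 10.9 CPM on chip 2, and 16.3, 16.1 and 15.4 CPM at 1000 nM, inside the DMSO range. Its log2 fold change was 0.39 (SE 0.212, adjusted p = 0.382) at 1000 nM and 0.47 (SE 0.21, adjusted p = 0.223) at 30 nM. NKD1 was called against chip 2 alone at 1, 10, 30, 300 and 1000 nM. If the listed blocks are the chips, which was not tested, chip 2 is the matched control for these doses other than 1 nM. NKD1 was also called against the mean of both DMSO groups at 30 nM (adjusted p = 0.0219) and 300 nM (0.0441). Without DMSO chip 1 replicate 1 it was called at 30 nM (0.0439).

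Among the transcription factors of the set, LEF1, SP5 and TCF7 overlapped DMSO at every dose. They held 183, 89 and 15 counts over the 6 DMSO libraries, where TNFRSF19 held 163, so LEF1 was not measured at lower depth than TNFRSF19. LEF1, a DNA-binding partner of beta-catenin, was 8.67 ± 1.16 CPM in DMSO and 8.65 ± 1.08 CPM at 1000 nM (SD, n = 3), with its highest mean, 11.7 ± 1.81 CPM, at 30 nM. Its log2 fold change was 0.43 (SE 0.246, adjusted p = 0.195) at 30 nM and 0.00 (SE 0.256, adjusted p = 0.964) at 1000 nM. The direction of the last value depended on the processing.

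SP5, a zinc finger repressor and direct target of beta-catenin, was 4.21 ± 0.782 CPM in DMSO and held 14, 10 and 4 counts in the 3 libraries of 1000 nM. Its log2 fold change there was -0.72 (SE 0.461, adjusted p = 0.301), and it was -1.17 without 1000 nM replicate 1 and -0.29 without 1000 nM replicate 3. TCF7, which encodes TCF1, held 15 counts over the 6 DMSO libraries, or 0.715 CPM (exact 95% Poisson interval 0.400 to 1.18), and 7 counts over the 3 libraries of 1000 nM, or 0.630 CPM (0.253 to 1.30). These intervals cover counting error only, and a difference in TCF7 was not detectable at this depth.

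**Figure D3:**
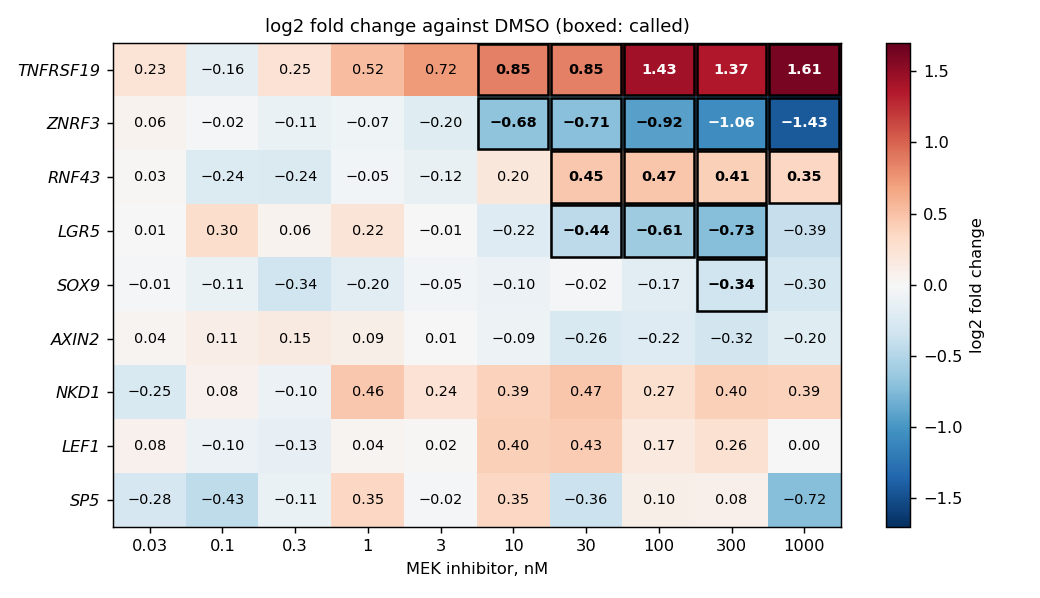
Log2 fold change of each tested member (rows) at each dose in nM (columns) against DMSO, with the colour scale from blue (lower) to red (higher) and the called values boxed. TNFRSF19 reached 1.61 and ZNRF3 -1.43 at 1000 nM, and no value up to 3 nM is boxed.

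Differences between doses a factor of 10 apart were tested directly, and a step was called for 4 members. From 0.1 to 1 nM TNFRSF19 rose by 0.68 (SE 0.225, adjusted p = 0.0329), and 15% of all tested genes were called in that step. From 0.3 to 3 nM SOX9 rose by 0.29 (SE 0.103, adjusted p = 0.0494), with 13.1% of all genes called, which follows its low level at 0.3 nM. From 1 to 10 nM ZNRF3 fell by 0.61 (SE 0.18, adjusted p = 0.0152), with 15.4% called. From 3 to 30 nM ZNRF3 fell by 0.50 (SE 0.177, adjusted p = 0.0392) and RNF43 rose by 0.58 (SE 0.115, adjusted p = 0.000293), with 18.2% called. No member was called by edgeR from 10 to 100 nM (5.14% of all genes), 30 to 300 nM (0.512%), 100 to 1000 nM (0.00826%) or 0.03 to 0.3 nM (0%), where 3, 2, 1 and 2 members had an unadjusted p below 0.05. No step was called for LGR5, AXIN2, NKD1, LEF1 or SP5. The chips of treated libraries are not named, so a step may span chips. If the listed blocks are the chips, the steps from 1 to 10 nM and from 3 to 30 nM span them.

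The dose of the midpoint was estimated by least squares on log2 CPM for each member called at the top dose whose change there was 1.5-fold or more. The dose giving the midpoint (EC50) of TNFRSF19 was 5.22 nM (95% interval 2.20 to 12.4) and that of ZNRF3 15.6 nM (6.39 to 38.3), and DUSP6 had 9.74 nM (7.62 to 12.5). Both members' intervals hold the value of DUSP6. The midpoint is on the log2 scale, and for a gene falling as far as DUSP6 it lies above the dose at which CPM halved. DUSP6 was 36.1, 21.7 and 13.5 CPM at 1, 3 and 10 nM, from 64.2 CPM in DMSO. ZNRF3 was 30.0, 27.3 and 19.5 CPM at those doses, from 31.4 CPM in DMSO. Similar midpoints therefore do not mean a similar onset. The estimate of ZNRF3 was 9.74 nM without replicate 1 of every group and 65.7 nM without replicate 3 of every group, 6.97 nM without 300 and 1000 nM, and 9.07 nM without the 3 libraries that stood apart. Without 300 and 1000 nM the estimate was 1.87 nM for TNFRSF19 and 6.70 nM for DUSP6. RNF43 was not fitted, its fold being under 1.5.

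Over the means of the 11 conditions, AXIN2 and LGR5 had r = 0.96, AXIN2 and ZNRF3 0.86, LGR5 and ZNRF3 0.85, and RNF43 and TNFRSF19 0.83, whereas AXIN2 and RNF43 had -0.96, LGR5 and RNF43 -0.93, ZNRF3 and TNFRSF19 -0.93, and ZNRF3 and RNF43 -0.83. These are descriptions over 11 points that share the dose order and the scaling. Genes whose log2 CPM closely followed a member called at 1000 nM, among 11018 searched, were GPR19 (r = 0.993), POP7 (0.990) and MTHFS (0.988) for ZNRF3. For TNFRSF19 they were GALNT3 (0.985), CASP10 (0.984) and DNAJC4 (0.981). For RNF43 they included ZKSCAN3 (0.964) and VPS13B (0.962), neither of which was itself called at 1000 nM. CASP10, a caspase of the death receptor pathway, went from 15.9 to 53.5 CPM between DMSO and 1000 nM, and POP7, a subunit of RNase P and RNase MRP, from 69.9 to 28.5 CPM.

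Other genes of the pathway moved in both directions at 1000 nM, where 21.2% of all tested genes were called higher and 20.7% lower. Of 10 tested WNT ligands and secretion genes, 2 rose and 3 fell, near those shares. WNT3 went from 15.1 ± 3.47 to 5.49 ± 0.36 CPM (log2 fold change -1.45, SE 0.276), WNT10B fell by 2.63 (SE 0.546) from 3.53 CPM, and WNT5A fell by 0.74 (SE 0.213), a call lost without DMSO chip 2 replicate 3 (adjusted p = 0.0699). Of 16 receptors and co-receptors, 4 rose and 0 fell (edgeR; 0 were lower at an unadjusted p below 0.05 too), beside 21.2% and 20.7% of all genes. FZD7, a Frizzled receptor, went from 27.0 ± 2.53 CPM to between 75.8 and 111 CPM (1.75, SE 0.144), FZD1 rose by 1.04 (SE 0.157), and LGR6 rose by 0.84 (SE 0.192), a call lost without 1000 nM replicate 1 (adjusted p = 0.0570).

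Of 15 destruction complex genes, which here include CTNNB1 for beta-catenin itself, 3 rose and 3 fell, near the shares of all genes (21.2% and 20.7%). CTNNB1 went from 394 ± 5.45 to 534 ± 41.4 CPM (0.44, SE 0.0809), the casein kinase CSNK1D rose by 0.49 (SE 0.0964), and CSNK1E fell by 0.49 (SE 0.102). Of 14 nuclear partners, 6 rose and 0 fell by edgeR (at an unadjusted p below 0.05, 7 were higher and 0 lower), beside 21.2% and 20.7% of all genes, with a list median of 0.42. They include AES (0.71, SE 0.0958), the co-repressor TLE4 (1.06, SE 0.161) and the coactivator BCL9L (1.19, SE 0.174). Of 10 secreted or membrane inhibitors, 3 rose and 3 fell, beside 21.2% and 20.7% of all genes. TRABD2A, a WNT-cleaving protease, fell by 3.59 (SE 0.379) from 59.3 CPM, NKD2 fell by 1.12 (SE 0.139), and DKK3 rose by 1.34 (SE 0.317).

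Outside the set, of 14 other WNT targets tested, 1 rose and 8 fell, beside 21.2% and 20.7% of all genes, with a list median of -0.54. A gene of this list is also among the MAPK genes, of which 9 of 10 fell, beside the same 20.7%. The part of ERK signalling in the fall of this list was not tested. MYC, also an ERK-dependent gene, went from 423 ± 16.4 to 55.9 ± 5.72 CPM (-2.92, SE 0.103), VEGFA fell by 2.09 (SE 0.161), and JAG1, a Notch ligand, fell by 1.30 (SE 0.132). Of 10 other crypt stem and progenitor genes tested, 5 rose and 3 fell, beside the same 21.2% and 20.7%, with a list median of 0.52. CLU, a marker of revival stem cells, went from 92.9 ± 5.63 to 269 ± 46.2 CPM (1.53, SE 0.125), ALDH1A1 rose by 2.49 (SE 0.249), and RGMB fell by 1.36 (SE 0.188). The median over all tested genes was 0.01.

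**Figure D4:**
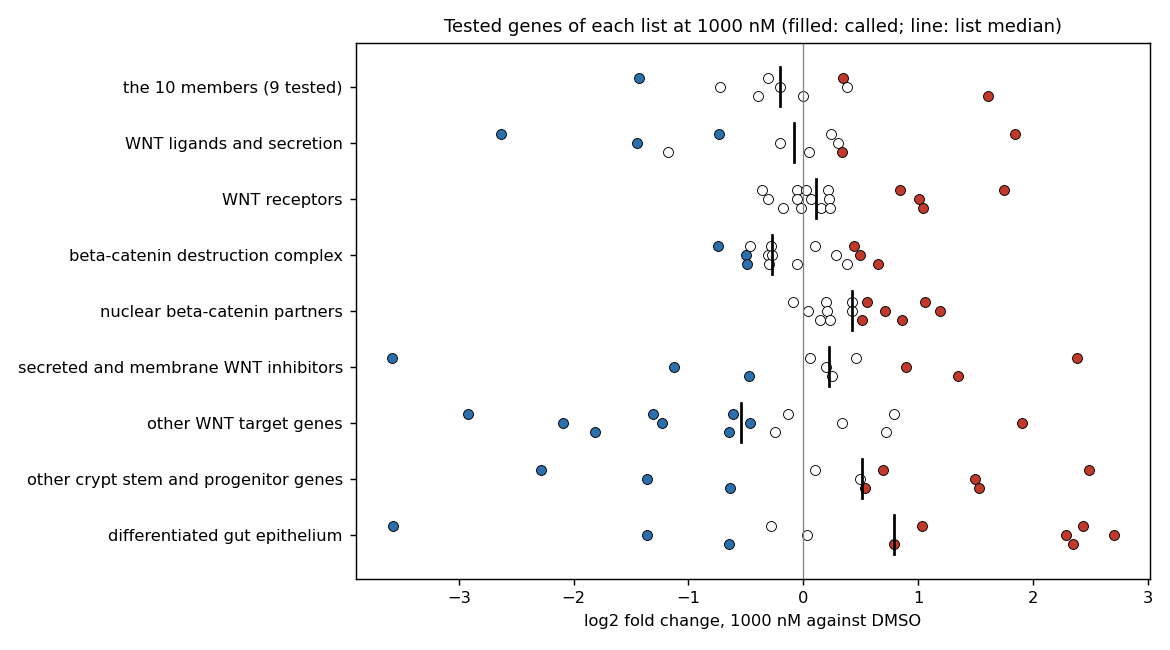
Log2 fold change at 1000 nM (horizontal axis) of each tested gene of the members and of 8 lists of pathway and gut genes (rows); filled points are called, open points are not, and bars are list medians. The median was -0.20 for the members, 0.42 for nuclear partners and -0.54 for other WNT targets.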

How the data were processed

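Counts of reads per gene, as whole numbers without normalization, are what the authors deposited for the 36 LoVo libraries. The submitters' processing notes name hg19 as the build; aligner and counter: not given in the sources used here. Per the labels' protocols, 10 ng of RNA per sample was amplified, and each pool held 18 samples. Total counts ran from 2972186 to 4751839 per library (median 3952427), and counts are not corrected for repeated amplification.

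The tests were run in edgeR 4.0.16 under R 4.3.3. Genes passing filterByExpr with 12 groups (12102 of 20802) were scaled by TMM and fitted with the robust quasi-likelihood test over all 36 libraries (24 residual degrees of freedom). DMSO of chip 1 and of chip 2 each served as control for every dose, the larger p was adjusted by Benjamini-Hochberg, and a gene was called below 0.05 with the same sign against both. For EC50 and patterns, log2 CPM used a prior count of 1. The ratio used an exact permutation test in scipy 1.17.1. TCF7 failed the filter, so its ratio to LEF1 was not computed.

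DMSO means and SDs use 3 pair means over the chips, because the labels give the same replicate number on both. Deviations of same-numbered libraries had r = 0.140 to 0.287. The mean of -0.113 for different numbers follows from this, since deviations within a group sum to 0. Other pairs of groups had a mean same-number r of -0.261 to 0.285. Chi-square per degree of freedom across chips was 1.53 to 1.58 for same numbers and 2.07 to 2.70 for different ones. Within a chip, where all numbers differ, it was 1.60 to 2.47, the lowest of these close to the same-number values. Counts of same-numbered libraries thus still differed beyond sampling noise. Genes named are all members, DUSP6, in each other list the 3 genes with the smallest p at 1000 nM, and the 3 genes most like each member called at 1000 nM, of which 1 is not reported here. MAPK genes other than DUSP6 are not named, though a gene of that list is counted among the other WNT targets. Markers at 0 in every library are named in addition. The members and lists were chosen with earlier results of these data known. Promoter sequences are RefSeq's on GRCh38.p14, matched by symbol, and no hg19 coordinates were used. Alternatives covered the DMSO chip used, scaling, filter, tool (DESeq2 1.42.0, limma 3.58.1), replicate block and each replicate left out.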

Additional observations from a re-analysis of the deposited data

How the results depend on the processing

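Of 18 calls on members, 10 held in all 22 alternatives, 8 were lost in 1 or more, and none changed sign. The number of members called was 1 at 0.3 nM when only the libraries compared were fitted. That fit called 125 of all genes, beside 0 with all libraries fitted. At 1 nM the number of members was 2 against DMSO chip 2 alone and 1 against the mean of both DMSO groups. Over all genes these settings called 1789 and 2537, beside 965 against both chips. At 3 nM the number of members was 1 against chip 2 alone, against the mean and with DMSO counts summed over chips. Over all genes those settings called 2404, 3137 and 2525, beside 1615 against both chips. With each replicate left out in turn, 0 to 1 members were called at 3 nM. With replicates left out the number of members ran from 1 to 2 at 10 nM and from 2 to 5 at 30 nM. The fits with 1 member at 10 nM called 2503 to 2791 of all genes, beside 3249 with every library. Those with 2 members at 30 nM called 3672 to 3920, beside 4352. At 1000 nM the number of members was 5 against chip 1 alone, against the mean and with DMSO summed. These settings called more genes in general: 6040, 6623 and 6201 over all genes, beside 5064 against both chips. The log2 fold change of LEF1 at 1000 nM, near 0, changed sign against chip 1 alone (-0.0249), with DMSO summed (-0.0194), with no filter (-0.0262) and with at least 1 CPM in 3 libraries (-0.0339), and ran from -0.118 to 0.0769 with each replicate left out. The cause was not tested.

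With the replicate block, the members called numbered 2, 3, 4, 5 and 3 at 10, 30, 100, 300 and 1000 nM and 0 below, where LGR5 at 30 nM was the only call lost (adjusted p = 0.0604). Beyond DMSO the libraries share only a number: 1 of 65 other pairs of groups had every same-number r over 0.1, and 7 of 30 treated libraries lay nearest to the DMSO pair of their own number. The log2 ratio of ZNRF3 to RNF43 at 1000 nM minus DMSO ran from -2.04 to -1.49 with each replicate left out. Depth limits SP5 and TCF7, which had few counts per library.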

Other observations

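Genes of differentiated gut epithelium, which the comparisons on the members did not describe, moved in both directions at 1000 nM. Of 21 listed, 11 were tested, and 6 rose and 3 fell, beside 21.2% and 20.7% of all tested genes. The list median was 0.79, beside 0.01 for all tested genes. MUC2, the gel-forming mucin of goblet cells, went from 148 ± 7.07 CPM in DMSO to 12.5 ± 2.66 CPM (SD, n = 3; log2 fold change -3.58, SE 0.127). LYZ, the lysozyme of Paneth cells and also of myeloid blood cells, went from 10.9 ± 1.75 to 71.1 ± 7.76 CPM (2.71, SE 0.192). CDX2, a transcription factor of intestinal identity, went from 138 ± 8.84 to 283 ± 18.3 CPM (1.04, SE 0.0949). CHGA and DEFA5, markers of enteroendocrine and Paneth cells, were at 0 in every library. At 10 nM, 3 of the 11 tested genes were called higher and 1 lower, beside 13.5% and 13.3% of all tested genes.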
